A study of Mus musculus with 6 samples.

Results

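The proteasome is the protease complex that degrades most proteins tagged with ubiquitin in the cytosol and nucleus. Its genes were compared here between 3 mouse libraries labelled JMML, for juvenile myelomonocytic leukemia, and 3 labelled WT, for wild type. The members are the protein-coding genes of GENCODE vM21 whose symbol is Psma, Psmb, Psmc, Psmd, Psme, Psmf or Psmg followed by digits. There are 48 of them among the 46078 genes of each count table, and 47 passed the filter on low counts. The remaining member, Psmb11, encodes the catalytic subunit of thymic epithelium and had 0, 2 and 0 counts in JMML and 0, 10 and 3 in WT. Here and below, the 3 values of a group stand in the order of its replicate numbers.

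The series concerns a mouse model of leukemia with sustained fetal blood formation, and its design is case against control. The labels give JMML as the genotype of one group and wild type as that of the other. They name no altered gene, strain, age, sex, tissue or agent, so nothing further can be said of how the model was made. The libraries were made from total RNA with ribosomal RNA removed, and they hold raw counts per gene.

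The complex is built of a barrel and the particles that open it. The barrel, called the core, has outer rings of alpha subunits, which form the gate, and inner rings of beta subunits, of which Psmb5, Psmb6 and Psmb7 carry the cutting sites. In blood cells and under interferon, the inducible subunits Psmb8, Psmb9 and Psmb10 take the places of Psmb5, Psmb6 and Psmb7, which gives the immunoproteasome and changes the peptides made for MHC class I. The regulatory cap binds ubiquitin chains, unfolds the substrate with a ring of ATPases and feeds it into the core, while the activators encoded by Psme1 to Psme4 open the core without using ubiquitin. Further proteins, called chaperones here, help the core or the cap to assemble and are not part of the finished particle.

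Total counts lay between 91976512 and 108395459 in JMML and between 47096464 and 61656272 in WT. The sample identifier has a final letter F for JMML replicates 1 and 2 and M for the other 4 libraries, so within the letter M a single JMML library stands against 3 WT libraries. A first part of the identifier is shared by both libraries numbered 3, and the labels do not say what it stands for. The labels do not say that replicates are separate animals, and p-values then measure only the spread between these samples. The members took 0.468%, 0.495% and 0.536% of all counts in JMML and 0.469%, 0.413% and 0.405% in WT, so the groups overlapped on this raw scale. Of the marker lists, all 8 B-cell, all 8 T-cell, 6 of 8 erythroid, all 6 megakaryocyte and 6 of 8 endothelial and stromal genes were lower in JMML. Higher were 5 of 6 monocyte, 6 of 8 dendritic cell and 3 of 8 neutrophil genes. By the same test, described below, 12.4% of all tested genes were higher and 13.8% lower. The summed level of the erythroid markers was 87.2 to 576 CPM in JMML and 1573 to 2480 in WT, that of the B-cell markers 12 to 17.5 and 103 to 410, and that of the T-cell markers 11.4 to 20.6 and 59.5 to 75.9. The megakaryocyte markers summed to 12.1 to 27 CPM in JMML and 228 to 751 in WT. The endothelial and stromal markers summed to 1788 to 2778 CPM in JMML and 1313 to 4599 in WT. Most of that last sum came from Col1a1 and Col1a2, which were not called. Their means were 1198 and 1096.5 CPM in JMML and 1178 and 927 CPM in WT. The monocyte markers summed to 5803 to 9729 CPM in JMML and 3369 to 4411 in WT, the dendritic cell markers to 576 to 741 and 125 to 152, and the neutrophil markers to 19501 to 28958 and 11422 to 19914. The hepatocyte markers Alb and Serpina1a had 0 counts in every library. The part of cell composition in the results below was not tested, and in bulk RNA fewer cells of a type and less RNA per cell cannot be told apart.

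The proteasome genes that passed the test were all but 1 higher in JMML. Of 47 tested members, 22 were higher and 1 was lower by edgeR's quasi-likelihood test at a Benjamini-Hochberg adjusted p under 0.05 over all 18097 tested genes. Among all tested genes the test called 12.4% higher and 13.8% lower. Among the 8183 genes whose mean log2 CPM was at least 4, a level that 45 of the members reached, it called 20.5% higher and 9.86% lower. The median log2 fold change was 0.43 for the members, −0.02 for all tested genes and 0.14 for the genes at that level. The 3 JMML libraries all lay above the 3 WT libraries for 28 members and below them for 3, against 22.9% and 24.6% of all tested genes and 34.0% and 16.7% of the genes at that level. With library totals alone as the scaling, the all-gene median moved by −0.18 (log2), and 12 members were higher and 3 lower; relative to the median of all genes the members stood at 0.45 under both scalings. The 22 became 14 when JMML replicate 3 was left out, 9 when WT replicate 2 was and 13 when WT replicate 3 was, and 8 with the letter as a covariate and 9 in the M libraries alone.

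**Figure D1:**
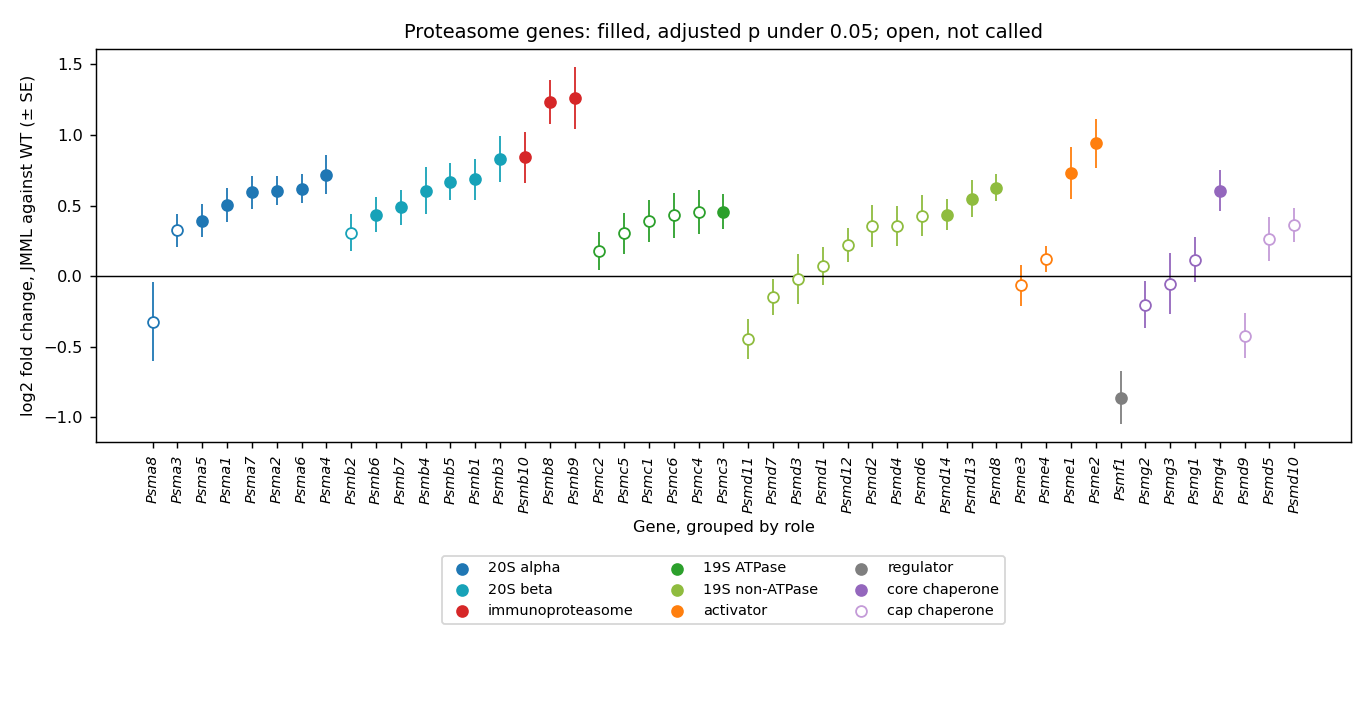
Log2 fold change of JMML against WT with its standard error for the 47 tested members, grouped by role along the horizontal axis. Filled points passed the adjusted threshold; Psmb9 (1.26) and Psmb8 (1.23) stand highest and Psmf1 (−0.86) lowest.

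The inducible catalytic subunits had the highest median log2 fold change of the roles, at 1.23. All 3 were higher in JMML, against 12.4% of all tested genes and 20.5% of those with mean log2 CPM of at least 4. Their summed level was 278 ± 55.6 CPM in JMML and 128 ± 11.1 CPM in WT (SD, n = 3). Psmb8, which takes the place of Psmb5, lies at chromosome 17, 34197721 to 34201454 (GRCm38), in the MHC region. It had 126, 166 and 177 CPM in JMML and 69.8, 58.9 and 70.9 CPM in WT. Every JMML library stood above every WT library, at a log2 fold change of 1.23 ± 0.15 SE (2.35-fold; adjusted p = 0.00357 in edgeR). Psmb9, which takes the place of Psmb6, lies at chromosome 17, 34181987 to 34187764. It had 35.6, 39.5 and 61.8 CPM in JMML and 20.4, 17.5 and 19.2 CPM in WT. JMML replicate 3 was highest, and the log2 fold change was 1.26 ± 0.22 SE (adjusted p = 0.00821 in edgeR). Psmb10, which takes the place of Psmb7, lies at chromosome 8, 105935735 to 105938444. It had 56.4, 82.1 and 88.6 CPM in JMML and 45.8, 38.7 and 42.2 CPM in WT. The groups did not overlap, though JMML replicate 1 lay nearer to WT than to the other JMML libraries, and the log2 fold change was 0.84 ± 0.18 SE (adjusted p = 0.0157 in edgeR). The calls of Psmb8 and Psmb9 held in all 17 alternative analyses, whereas that of Psmb10 ended without WT replicate 2 (0.78, adjusted p = 0.0741 in edgeR) and with the replicate number as a block (0.82, adjusted p = 0.0510 in edgeR). Psmb9 shares 212 exon bases with Tap1 on the opposite strand. Tap1 had 45438 counts in all libraries against 16054 for Psmb9, and it was itself called higher (1.04). Psmb8 shares 498 exon bases with Gm20496, which had 67 counts in all libraries against 55616 for Psmb8. The strand setting of the counting is not given in the sources used here, so part of the Psmb9 counts is uncertain.

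The standard subunits that carry the cutting sites also rose, with log2 fold changes from 0.44 to 0.67. Psmb5, with the chymotrypsin-like site, had 71.2, 77.2 and 82.3 CPM in JMML and 54.4, 40.9 and 49.7 CPM in WT. Its groups did not overlap, at a log2 fold change of 0.67 ± 0.13 SE (adjusted p = 0.0126 in edgeR). Psmb6, with the caspase-like site, had 119, 117 and 122 CPM in JMML and 98.3, 75.0 and 91.7 CPM in WT. The JMML libraries lay close together above all WT libraries, at 0.44 ± 0.12 SE (adjusted p = 0.0371 in edgeR). Psmb7, with the trypsin-like site, had 152, 125 and 134 CPM in JMML and 109, 88.4 and 95.9 CPM in WT. Its groups did not overlap, at 0.49 ± 0.12 SE (adjusted p = 0.0275 in edgeR). Psmb5 kept its call without any single library, but was at 0.44 with the trend of exon length removed. Psmb6 lost its call without any single library other than WT replicate 1 (0.33 to 0.50), and Psmb7 when JMML replicate 1 (0.42), JMML replicate 3 (0.52), WT replicate 2 (0.42) or WT replicate 3 (0.51) was left out. Psmb5 has a copy of 98.9% identity, the pseudogene Gm3375, which is not among the counted genes. Reads of that copy thus cannot be told apart from those of Psmb5 here. Psmb7 shares 405 exon bases with Nek6 on the opposite strand.

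**Figure D2:**
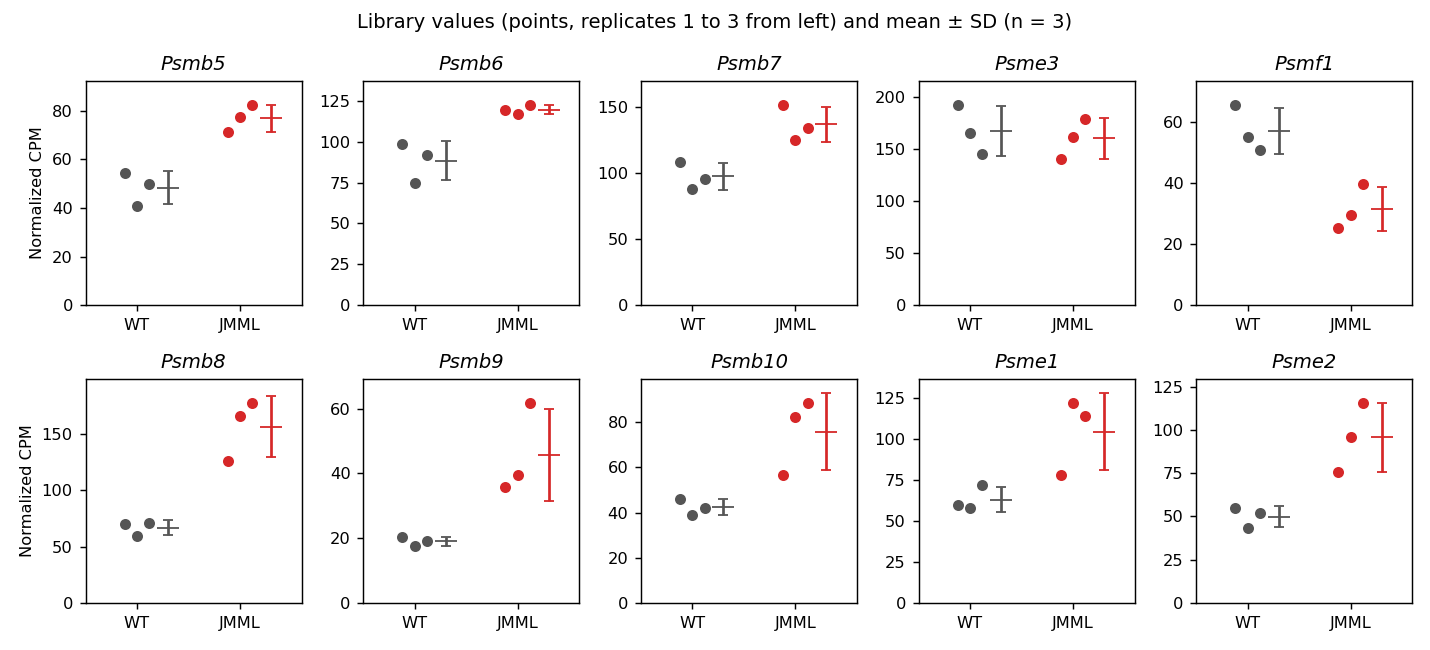
Normalized CPM of the standard catalytic subunits, the inducible subunits, the activators Psme1, Psme2 and Psme3 and the regulator Psmf1 in each library, with mean ± SD (n = 3 per group). All panels start at 0; the groups are apart in every panel but that of Psme3, and Psmf1 is the panel in which JMML lies below WT.

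The ratio of the inducible to the standard subunit within a library does not depend on how libraries are scaled. The log2 ratio of Psmb8 to Psmb5 counts was 0.82, 1.10 and 1.11 in JMML and 0.36, 0.53 and 0.51 in WT. All JMML libraries were above all WT libraries, by 0.54 on average (1.46-fold). The log2 ratio of Psmb9 to Psmb6 was −1.74, −1.57 and −0.99 in JMML and −2.27, −2.10 and −2.26 in WT. These did not overlap either, with a difference of 0.78 (1.71-fold) that fell to 0.55 without JMML replicate 3 and was 1.22 in the M libraries alone. The log2 ratio of Psmb10 to Psmb7 was −1.43, −0.60 and −0.60 in JMML and −1.25, −1.19 and −1.18 in WT. JMML replicate 1 was the lowest of all 6 libraries, so the groups overlapped, and the difference of 0.33 became 0.60 without that library and 0.19 without JMML replicate 2 or JMML replicate 3. An exact two-sided permutation test over the libraries gave p = 0.1 for the first and second pair, the smallest p that 3 against 3 can give, and p = 0.4 for the third. Adjusted over the 5 ratios tested, these are 0.125 and 0.4, so this test, which cannot go lower with 3 libraries a group, did not pass the threshold for any pair. Per kilobase of exon, Psmb8 made up 34.9 ± 2.56% of its pair in JMML and 26.9 ± 1.26% in WT, Psmb9 16.2 ± 3.84% and 9.98 ± 0.593%, and Psmb10 52.2 ± 8.19% and 46.5 ± 0.601% (SD, n = 3). These shares depend on the exon lengths taken: with those of the basic annotation, chosen after seeing the data, Psmb8 made up 52.7% and 43.3% of its pair and Psmb10 32.8% and 27.7%.

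**Figure D3:**
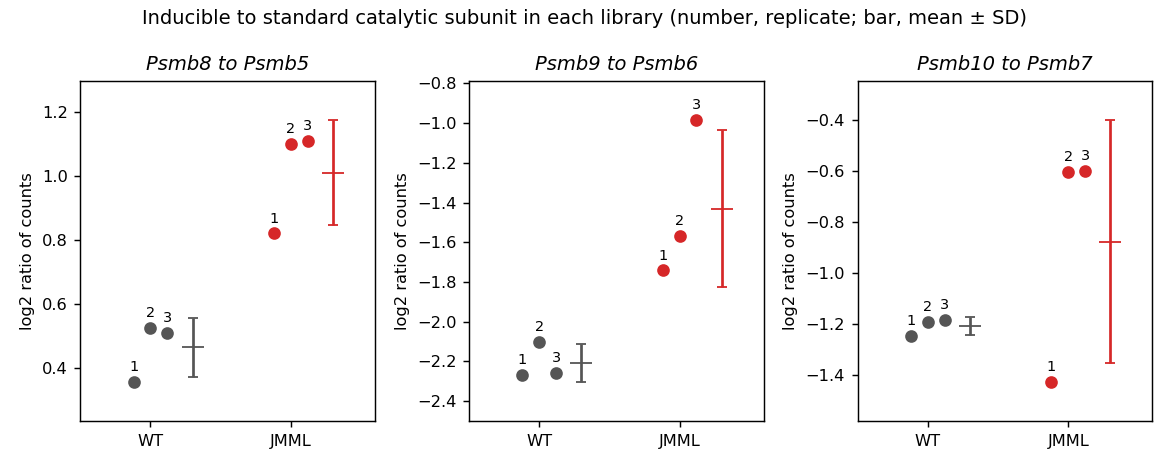
Log2 ratio of the counts of each inducible subunit to the standard subunit it replaces, by library; the number at each point is the replicate, and the bar gives mean ± SD (n = 3). The axes differ between panels and do not start at 0; JMML replicate 1 lies at −1.43 for Psmb10 to Psmb7, under all WT libraries.

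Promoter sequences are shown for the inducible subunits, for the standard subunits Psmb5 and Psmb6 that they replace, for Psme1 and for Psmf1, the member called lower. They come from RefSeq windows on GRCm38.p6 that run from 250 bases before to 50 after the start, and 40 members had a window; Psma8, Psmb1, Psmb2, Psmb7, Psmc3, Psmd3, Psmd7 and Psmg2 did not. Both strands were searched for the core of the interferon response element (GAAA, 2 further bases and GAAA again), TTCNNNGAA, the core of the gamma-activated site, TGACNNNGC, the core of the antioxidant response element bound by Nfe2l1 and Nfe2l2, CCAAT, and the core of an NF-kappaB site (GGG, 2 further bases and TTTCC). These patterns do not contain each other, though matches may overlap. The first 3 lines below give 30 bases around a match for Psmb8, Psmb9 and Psme1. The next 4 give the bases before the RefSeq start outside annotated UTRs for Psmb5, Psmb6, Psmb10 and Psmf1. Matches are in capitals. The Psme1 match lies 9 to 18 bases after the start. The stretches of Psmb8, Psmb9, Psme1 and Psmf1 lie inside the GENCODE span of the gene, so RefSeq and GENCODE starts differ there. For Psmf1, on the minus strand, the stretch reaches 151741560 and the GENCODE gene 151744186.
Psmb8 (chr17:34198088-34198117, plus strand, gamma-activated site core 97 to 89 bases before the start): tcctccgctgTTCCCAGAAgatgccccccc
Psmb9 (chr17:34187321-34187350, minus strand, CCAAT on the other strand): gcgcagccgctgATTGGaaagccgagcccc
Psme1 (chr14:55578493-55578522, plus strand, interferon response element core on the other strand): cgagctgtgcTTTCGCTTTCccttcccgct
Psmb5 (chr14:54618023-54618245, minus strand, antioxidant response element core): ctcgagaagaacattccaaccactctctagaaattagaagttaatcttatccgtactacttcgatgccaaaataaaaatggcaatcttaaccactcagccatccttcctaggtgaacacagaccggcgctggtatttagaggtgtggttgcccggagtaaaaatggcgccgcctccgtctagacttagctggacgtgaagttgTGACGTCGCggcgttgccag
Psmb6 (chr11:70525107-70525356, plus strand, antioxidant response element core): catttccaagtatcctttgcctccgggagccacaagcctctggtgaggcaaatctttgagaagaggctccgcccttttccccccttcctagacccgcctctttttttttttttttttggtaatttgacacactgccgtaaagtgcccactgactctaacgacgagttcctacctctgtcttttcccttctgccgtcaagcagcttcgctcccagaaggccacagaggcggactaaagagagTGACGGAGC
Psmb10 (chr8:105938445-105938642, minus strand, no match): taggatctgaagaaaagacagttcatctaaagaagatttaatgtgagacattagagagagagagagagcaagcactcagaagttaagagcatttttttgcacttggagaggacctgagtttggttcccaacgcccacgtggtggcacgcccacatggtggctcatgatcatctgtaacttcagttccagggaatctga
Psmf1 (chr2:151741311-151741560, minus strand, no match): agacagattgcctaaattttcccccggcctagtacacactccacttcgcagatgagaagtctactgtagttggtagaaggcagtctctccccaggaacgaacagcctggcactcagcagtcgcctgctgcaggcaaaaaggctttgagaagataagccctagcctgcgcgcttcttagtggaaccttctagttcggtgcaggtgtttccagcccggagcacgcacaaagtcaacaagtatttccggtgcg

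Over all 40 windows, the interferon response element core was found in 5 members (12.5%; Psmb3, Psmd4, Psmd9, Psme1 and Psmg4), against 3.99% of the 27025 genes in the table. The gamma-activated site core was found in 3 (7.50%; Psmb8, Psmd2 and Psmg1), against 9.55% of genes. The antioxidant response element core was found in 6 (15%; Psmb5, Psmb6, Psmc6, Psmd12, Psmd9 and Psme4), against 14% of genes. CCAAT was found in 14 (35.0%), against 41.1% of genes, and in 7 of 12 core members with a window. The NF-kappaB core was found in 0 of 40, against 1.9% of genes. A match is a description of letters and not a bound site, and a missing match says only that those letters are not in this window.

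Most core genes rose. Of its 15 tested members, 12 were higher and none was lower, with a median log2 fold change of 0.59. Among genes with mean log2 CPM of at least 4, 20.5% were called higher. The 14 subunits of the standard core had fold changes from 0.31 (Psmb2) to 0.83 (Psmb3) on the log2 scale. For all 14 the JMML libraries lay above the WT libraries, as for 34.0% of genes at that level. The summed level of the 14 was 2017 ± 155 CPM in JMML and 1365 ± 113 CPM in WT (SD, n = 3), 1.48 times as much. With the trend of exon length removed, 9 of the 15 tested core members were higher, at a median log2 fold change of 0.48. The 12 became 7 with library totals alone, 8 with JMML replicate 1 or JMML replicate 3 left out, 6 with WT replicate 2 left out, 7 with WT replicate 3 left out, and 3 with the letter as a covariate or in the M libraries alone.

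Among alpha subunits, which form the gate rings, 6 of 8 were higher. The background was 12.4% of all tested genes and 20.5% of those with mean log2 CPM of at least 4. Psma4 had the largest change, with 183, 136 and 152 CPM in JMML and 99.4, 85.6 and 101 CPM in WT. The groups did not overlap, and the log2 fold change was 0.72 ± 0.14 SE (adjusted p = 0.0116 in edgeR). Psma6 (0.62), Psma2 (0.60), Psma7 (0.59), Psma1 (0.51) and Psma5 (0.39) were also higher. The call of Psma5 ended when any single library other than WT replicate 1 was left out, and its pseudogenes Gm8394 and Gm12989 held 4.74% and 3.38% of its own count. Psma3 missed the threshold at 0.33 ± 0.12 SE (adjusted p = 0.0759 in edgeR), although its groups did not overlap. Psma8, the alpha subunit of male germ cells, had 1.84, 1.57 and 2.32 CPM in JMML and 2.74, 2.61 and 1.82 CPM in WT. It was the lowest member tested, its groups overlapped, and its log2 fold change of −0.32 ± 0.28 SE missed the threshold (adjusted p = 0.421 in edgeR).

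Among the 7 tested beta subunits of the standard core, 6 were higher, against 20.5% of genes with mean log2 CPM of at least 4. Psmb3, a subunit without a cutting site, had 178, 131 and 137 CPM in JMML and 97.6, 73.7 and 79.4 CPM in WT. JMML replicate 1 was highest, the groups did not overlap, and the log2 fold change was 0.83 ± 0.16 SE (adjusted p = 0.0116 in edgeR). Psmb1 (0.69) and Psmb4 (0.61), also subunits without a cutting site, were higher. The call of Psmb1 ended without WT replicate 2, and that of Psmb4 without any single library other than WT replicate 1. Psmb2 had the smallest change of the standard core, at 87.6, 101 and 111 CPM in JMML and 87.5, 83.3 and 71.4 CPM in WT. JMML replicate 1 and WT replicate 1 were nearly equal there, and the log2 fold change of 0.31 ± 0.13 SE missed the threshold (adjusted p = 0.118 in edgeR).

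Levels of the standard core subunits differed within each group by more than the groups differed. Per kilobase of exon, the lowest of the 14 was Psma3 at 29.9 ± 2.66 CPM per kilobase in JMML and 23.8 ± 2.14 in WT, and the highest was Psma6 at 130 ± 6.41 and 84.8 ± 5.42 (SD, n = 3). In both groups the order thus began and ended with the same genes. The highest stood 4.36 times above the lowest in JMML and 3.56 times in WT. The exon length used is the union of all annotated transcripts of a gene, which lowers the level of genes with long rare transcripts.

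Of the 17 genes of the regulatory cap, 4 were higher and none was lower, and the median log2 fold change was 0.36. That count is near the background of 20.5% called higher among genes at the members' level. Whether cap and core differ was not tested. The summed level of the cap was 2240 ± 168 CPM in JMML and 1826 ± 204 CPM in WT (SD, n = 3), 1.23 times as much. Of the 6 ATPases that unfold substrates, 1 was higher, Psmc3, with 164, 159 and 183 CPM in JMML and 135, 108 and 125 CPM in WT. Its groups did not overlap, and its log2 fold change was 0.46 ± 0.12 SE (adjusted p = 0.0315 in edgeR). The other ATPases had positive changes from 0.18 to 0.46 that missed the threshold. The smallest was that of Psmc2, at 102, 105 and 123 CPM in JMML and 113, 91.8 and 87.3 CPM in WT. Its groups overlapped, and its log2 fold change was 0.18 ± 0.14 SE (adjusted p = 0.351 in edgeR), and −0.0025 with library totals alone.

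Among the 11 other cap subunits, Psmd8, Psmd13 and Psmd14 were higher, against 20.5% of genes with mean log2 CPM of at least 4. Psmd8, a subunit of the lid, had 181, 171 and 177 CPM in JMML and 119, 107 and 116 CPM in WT. Both groups were tight and apart, at a log2 fold change of 0.63 ± 0.10 SE (adjusted p = 0.00596 in edgeR) that kept its call in all 17 alternatives. Psmd13, another lid subunit, was at 0.55 ± 0.13 SE, and Psmd14, the enzyme that removes ubiquitin from the substrate, at 0.44 ± 0.11 SE. Psmd11, a lid subunit whose level is known to limit cap assembly in some cells, went the other way, with 56.7, 54.2 and 65.2 CPM in JMML and 93.5, 76.7 and 69.1 CPM in WT. The groups were apart, but its log2 fold change of −0.44 ± 0.14 SE missed the threshold (adjusted p = 0.0558 in edgeR). Psmd1 (0.07 ± 0.14 SE), a large scaffold subunit, Psmd3 (−0.02 ± 0.18) and Psmd7 (−0.15 ± 0.13) were near 0, with overlapping groups. The calls of Psmc3, Psmd13 and Psmd14 ended, and 1 cap gene was higher, when any of JMML replicate 3, WT replicate 2 and WT replicate 3 was left out. Psmc3 also lost its call in the absence of JMML replicate 2, and Psmd13 in that of JMML replicate 1.

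The activators split. Psme1 and Psme2 encode the subunits of PA28, an interferon-inducible ring that opens the core and favours the release of peptides for MHC class I, and they lie 5911 bases apart on chromosome 14. Psme2 had 75.6, 95.8 and 116 CPM in JMML and 54.6, 43.1 and 51.8 CPM in WT. The groups did not overlap, at a log2 fold change of 0.94 ± 0.17 SE (adjusted p = 0.00999 in edgeR). Psme1 had 77.7, 122 and 114 CPM in JMML and 59.7, 57.5 and 71.7 CPM in WT. JMML replicate 1 lay just above the highest WT library, and the log2 fold change was 0.73 ± 0.18 SE (adjusted p = 0.0266 in edgeR). Psme2b, a copy that matches Psme2 at 99.4% of aligned bases, held 14.6% as many counts as Psme2 and was at 0.80 ± 0.21 SE, so the split of reads between both is uncertain. The call of Psme2 ended without WT replicate 2 (0.85), and that of Psme1 without JMML replicate 2 (0.62), JMML replicate 3 (0.69), WT replicate 1 (0.74) or WT replicate 2 (0.67).

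The nuclear activator and the large activator did not pass the test. Psme3, the related subunit that forms a nuclear ring, had 140, 162 and 179 CPM in JMML and 193, 166 and 145 CPM in WT. Its groups overlapped, at a log2 fold change of −0.06 ± 0.15 SE (adjusted p = 0.770 in edgeR). Psme4, the single-chain activator PA200, had 190, 193 and 194 CPM in JMML and 174, 177 and 178 CPM in WT. Its groups were tight and did not overlap, but the log2 fold change of 0.12 ± 0.09 SE missed the threshold (adjusted p = 0.347 in edgeR). The log2 ratio of Psme2 to Psme3 was −0.89, −0.76 and −0.63 in JMML and −1.82, −1.94 and −1.49 in WT, a difference of 0.99, and that of Psme1 to Psme3 differed by 0.77. Both ratios were higher in all 3 JMML libraries than in any WT library, with an exact permutation p = 0.1, the smallest possible here.

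Psmf1 was the 1 member called lower. It encodes PI31, a protein that inhibits the core in the test tube and helps to move proteasomes in some cells, and lies at chromosome 2, 151715812 to 151744186. It had 25.4, 29.4 and 39.6 CPM in JMML and 65.5, 55.1 and 50.9 CPM in WT. All JMML libraries lay below all WT libraries, at a log2 fold change of −0.86 ± 0.19 SE (0.551-fold; adjusted p = 0.0173 in edgeR). JMML replicate 3 was nearest to WT, and the change was −0.53 with the letter as a covariate and −0.49 in the M libraries alone, where the call ended (adjusted p = 0.139 and 0.166 in edgeR). The call also ended when JMML replicate 2 (−0.80), WT replicate 1 (−0.70) or WT replicate 2 (−0.88) was left out.

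Assembly chaperones showed little common change. Of 7 tested, 1 was higher and none was lower, against 12.4% and 13.8% of all tested genes. The median log2 fold change of 0.12 was −0.067 with library totals alone and −0.051 with the exon length trend removed. Psmg4, which acts with Psmg3 in building the alpha ring, had 14.6, 14.4 and 14.3 CPM in JMML and 10.4, 9.47 and 8.53 CPM in WT. All JMML libraries stood above all WT libraries, at a log2 fold change of 0.61 ± 0.14 SE (adjusted p = 0.0216 in edgeR). Its partner Psmg3 had 16.8, 13.8 and 17.8 CPM in JMML and 21.0, 12.2 and 17 CPM in WT, at −0.05 ± 0.22 SE with overlapping groups. Psmg2, of the other chaperone pair, had 23.3, 20.1 and 27.1 CPM in JMML and 31.6, 25.2 and 24.3 CPM in WT, at −0.20 ± 0.17 SE, and Psmg1, its partner, was at 0.12 ± 0.16 SE. Of the cap chaperones, Psmd10 (gankyrin), which is X-linked, had 26.8, 23.7 and 25.8 CPM in JMML and 19.6, 20.5 and 19.2 CPM in WT. Its groups did not overlap, at 0.36 ± 0.12 SE (adjusted p = 0.0623 in edgeR). Psmd9 had 30.5, 25.3 and 25.1 CPM in JMML and 42.6, 34 and 31.8 CPM in WT. These were apart in the opposite direction, at −0.42 ± 0.16 SE (adjusted p = 0.0866 in edgeR). Psmd5 was at 0.26 ± 0.15 SE. The call of Psmg4 ended when JMML replicate 2 (0.62), WT replicate 2 (0.60) or WT replicate 3 (0.58) was left out, and with the exon length trend removed (0.39).

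Genes that work with the proteasome were read from lists. The list of associated factors had a median log2 fold change of 0.08. Pomp, the maturation factor that the core needs for assembly, had 84.8, 81.8 and 113 CPM in JMML and 52.6, 45.5 and 54.4 CPM in WT. All JMML libraries were above all WT libraries, at 0.88 ± 0.15 SE (adjusted p = 0.00831 in edgeR). Sem1, a small subunit of the lid outside the Psm symbols, rose by 0.94 ± 0.17 SE (adjusted p = 0.00996 in edgeR). Psme2b, described above with Psme2, was also higher. Of 9 genes of the Nfe2l1 pathway, through which cells raise proteasome genes when proteolysis falls short, 0 were called in edgeR and the median was 0.08. Nfe2l1 itself had 25.6, 81.0 and 28.1 CPM in JMML and 31.9, 32.9 and 33.6 CPM in WT, so JMML replicate 2 stood apart from the other 5 libraries; it and Ddi2, the protease that activates its product (−0.03 ± 0.13 SE), were named after their values were seen. The smallest p in that list was that of Mafg, at 0.33 ± 0.12 SE (adjusted p = 0.0771 in edgeR). Of the 10 proliferation genes, none was higher and 1 was lower, Mki67 at −0.45 ± 0.13 SE (adjusted p = 0.0377 in edgeR), which was called in 6 of 17 alternatives. For all these lists the background was 12.4% of tested genes called higher and 13.8% lower.

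The genes of peptide loading on MHC class I, which use the peptides the immunoproteasome makes, were higher in 7 of 12 cases and lower in none. Their median log2 fold change was 0.66. Of all tested genes 12.4% were called higher, and 20.5% of those with mean log2 CPM of at least 4. H2-K1, H2-D1 and B2m, the class I heavy chains and their light chain, rose by 0.92 ± 0.11, 1.10 ± 0.14 and 0.84 ± 0.14 SE (adjusted p = 0.00308, 0.00359 and 0.00766 in edgeR). Tap1, a subunit of the peptide transporter that overlaps Psmb9 on chromosome 17, had 69.1, 123 and 180 CPM in JMML and 63.5, 59.3 and 57.5 CPM in WT. JMML replicate 1 was above WT for both neighbours, at 69.1 CPM against at most 63.5 for Tap1 and 35.6 CPM against at most 20.4 for Psmb9.

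The JMML libraries differed from each other in interferon genes, and these values stand beside the inducible subunits because interferon is known to induce them. Of 20 genes of interferon signalling, 6 were higher and none was lower. The log2 fold change was positive for 18 of the 20, with a median of 0.73. The background called higher was 12.4% of all tested genes and 20.5% of those with mean log2 CPM of at least 4. Isg15, an interferon-induced ubiquitin-like protein, had 1.11, 4.68 and 26.1 CPM in JMML and 2.89, 1.48 and 1.84 CPM in WT, and Ifit1 had 1.44, 5.57 and 45.1 CPM and 2.20, 2.15 and 2.15 CPM. JMML replicate 1 was thus below all WT libraries for Isg15 and Ifit1. Its Psmb8 level of 126 CPM was above all WT libraries and the lowest in JMML. Oas1a, an interferon-induced enzyme that senses double-stranded RNA, had 19.7, 59.8 and 106 CPM in JMML and 10.8, 9.35 and 8.45 CPM in WT, so there JMML replicate 1 was above all WT libraries. Irf1, a factor known to act on the inducible subunits, had 39.9, 22.1 and 33.9 CPM in JMML and 31.9, 34.5 and 19.4 CPM in WT, with overlapping groups, and Irf8, a factor of monocytes and dendritic cells, was higher at 1.11 ± 0.18 SE (adjusted p = 0.00648 in edgeR). Isg15, Ifit1, Irf1 and Tap1 were named for this comparison after their values were seen. Ifngr2, a chain of the interferon gamma receptor, Tyk2, a kinase of interferon receptors, and Oas1a were also higher (0.94 ± 0.12, 0.83 ± 0.11 and 2.70 ± 0.54 SE). With JMML replicate 3 left out, all 3 inducible subunits were called. Their median log2 fold change was then 1.004, against 1.23 with all libraries. JMML replicate 2, which stayed in, was also above all WT libraries for Isg15, Ifit1 and Oas1a. The part of interferon in the levels of the inducible subunits was not tested.

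**Figure D4:**
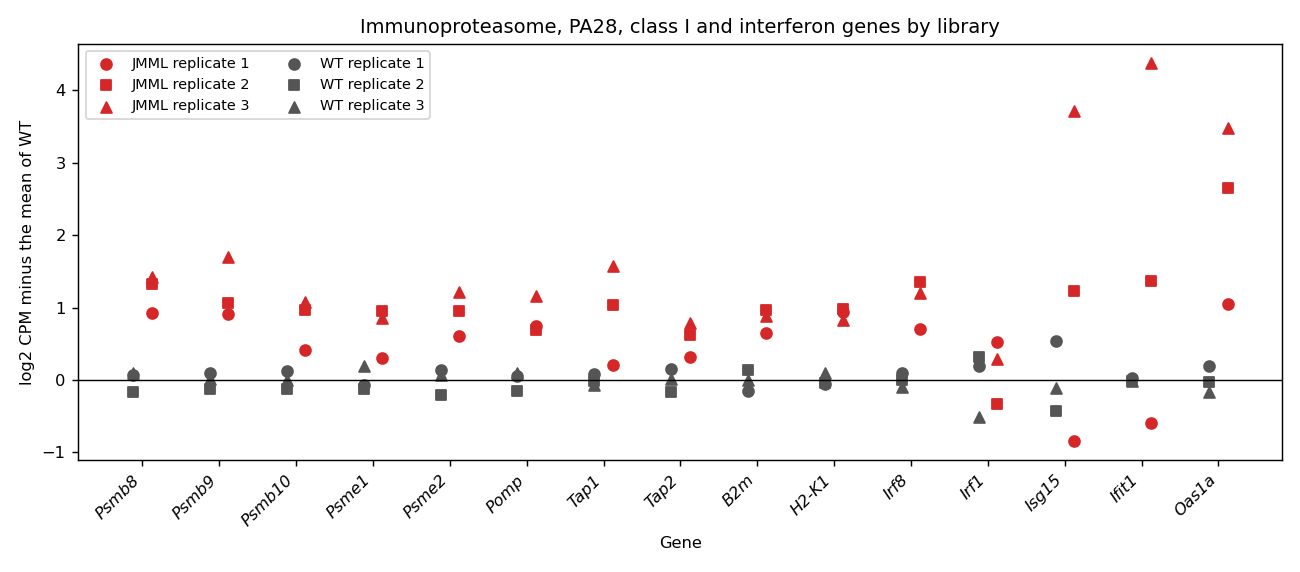
Log2 CPM of each gene in each library minus the mean of the WT libraries, for inducible subunits, PA28 genes, Pomp and genes of class I loading and interferon signalling. For Isg15 and Ifit1 the JMML libraries spread from below WT to far above it, while for Psmb8 and Psmb9 all JMML libraries lie above all WT libraries.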

How the data were processed

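RNA was measured in 3 JMML and 3 WT mouse libraries. The deposited files hold raw counts per Ensembl gene, made by the authors from stranded total RNA libraries. The submitters' processing notes name the build GRCm38 and DESeq2 1.22.2, StringTie 1.3.3b and STAR 2.5.3a among other tools, without saying what each did; how reads were counted, and with which annotation and strand setting, is not given in the sources used here. Of 46078 identifiers, 45143 matched GENCODE vM21. Genes kept by filterByExpr were scaled by TMM and tested with edgeR 4.0.16 (R 4.3.3, quasi-likelihood, both groups, no covariate, Benjamini-Hochberg threshold 0.05). CPM are TMM-scaled counts relative to the library size, 1 count being worth 0.00923 to 0.0212 CPM before that scaling. SE is the log2 fold change divided by the root of F. Ratios were tested by exact permutation. DESeq2 1.42.0, limma 3.58.1 and the other alternatives are in the closing section. Copies were sought with BLAST 2.17.0 (identity of at least 95% over at least 50% of the transcript). The fit was tested on simulated data. Members and lists were chosen with earlier results of these data known. The rule named every member, with library values for the catalytic subunits, their inducible forms, the activators, Psmf1, Psma8, Psmb11 and the highest and lowest member of each class, and up to 4 genes with the smallest p per list. Some genes of the lists are not reported here.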

Additional observations from a re-analysis of the deposited data

How the results depend on the processing

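Alternatives changed counts of calls more than directions. Members called higher, 22 in the analysis as reported, numbered 12 with library totals alone, 8 with the identifier letter as a covariate, 9 in the M libraries alone, 16 with a replicate block and 9 (without WT replicate 2) to 21 (without WT replicate 1) with a single library left out. Members called lower, 1 as reported, numbered 3 with library totals alone, 3 with a filter of 50 counts in 3 libraries, 0 with the replicate block, 0 with the letter, 0 in the M libraries and 0 to 1 with a library left out. The correlations of same-numbered libraries, on deviations from the group means, were −0.148, 0.122 and −0.195, the last for the pair whose identifiers share a first part. With 3 libraries a group, the deviations of a gene cancel within each group. These correlations thus cannot decide whether the samples were paired. With library totals alone the median log2 fold change was 0.24 for the members, 0.41 for the core and −0.067 for the chaperones, and the share of all calls that were higher was 27% against 47.4%. The chaperone median was −0.051 with the exon length trend removed and 0.061 to 0.31 with a library left out. Removing the exon length trend left 18 members called higher and a core median of 0.48. The median exon length was 2814 bases for the members and 3616 for all tested genes. The Psmb8 to Psmb5 difference was 0.77 with the exon length trend removed, and that of Psmb9 to Psmb6 was 1.22 in the M libraries alone.

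The values of single genes that turned in sign all belonged to genes not called. With library totals alone these were Psmc2 (−0.0025), Psmd1 (−0.11), Psme4 (−0.060), Psmg1 (−0.067) and Uba1 (−0.024). With the letter as a covariate they were Psmd3 (0.18), Psmd7 (0.039), Psme3 (0.094), Psmg2 (0.0049) and Psmg3 (0.085), and in the M libraries alone Psmd3 (0.21), Psmd7 (0.076), Psme3 (0.13), Psmg2 (0.041) and Psmg3 (0.12). Without the low-count filter they were Psmd3 (0.065), Psme3 (0.020) and Psmg3 (0.021), with DESeq2 Psmd3 (0.010), and with the exon length trend removed Psmd3 (0.022) and Psmg1 (−0.051). With a library left out, Psmd1 ranged from −0.0021 to 0.21, Psmd3 from −0.10 to 0.18, Psme3 from −0.13 to 0.10 and Psmg3 from −0.24 to 0.19. Over all named genes and alternatives, 1022 values kept direction and side of the threshold, 145 lost the call, 12 gained it and 28 turned in sign. The cause was not tested. Simulated data for JMML against WT held 18503 tested genes. There the test recovered 0% of genes changed 1.5-fold, 14% of those changed 2-fold, 94% at 4-fold and 100% at 8-fold. The simulation gave every gene the common dispersion. These rates therefore do not carry over to genes whose libraries lie closer together. Psmd8 is such a gene, with 176 ± 4.97 CPM in JMML and 114 ± 6.1 CPM in WT (SD, n = 3).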
